A study of Mus musculus with 6 samples.

Results

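The genes described here are the 5 C/EBP factors Cebpa, Cebpb, Cebpd, Cebpe and Cebpg and the 5 myeloid fate factors Spi1, Gfi1, Zeb2, Nr4a1 and Myb. They were chosen by their mouse symbols in GENCODE vM21, and all 10 were found among the 46078 genes of the count tables and all 10 passed the filter on low counts, which left 18097 tested genes. Total RNA of mice was sequenced in 6 libraries, 3 labelled JMML, for juvenile myelomonocytic leukemia, and 3 labelled WT. JMML is a blood cancer of early childhood with an excess of monocytic and granulocytic cells, and the series title places the libraries in a mouse model of leukemia arising from fetal blood formation. For neither group do the labels give a tissue, age, strain, altered gene, promoter or treatment. They also leave unsaid whether each replicate is another animal, and p-values therefore cover only the spread among these 6 libraries.

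C/EBP proteins are leucine zipper factors that bind DNA as dimers and switch on genes of granulocytes and monocytes. Cebpa is needed for the step from early progenitors to granulocyte and monocyte precursors, Cebpe for late granulocyte maturation, and Gfi1, a repressor, for neutrophil formation at the expense of monocytes. Spi1 encodes PU.1, an ETS factor needed in all myeloid cells and at high levels linked with monocytes. Cebpb acts in emergency granulocyte production and in the survival of Ly6C-low monocytes, Zeb2 in the monocyte and dendritic lineages, and Nr4a1 in Ly6C-low monocytes, while Myb holds progenitors in an immature, dividing state. Below, Cebpa, Cebpe and Gfi1 are called granulocyte factors, and Cebpb, Spi1, Zeb2 and Nr4a1 monocyte factors, a division made from textbook roles that several of the genes cross.

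C/EBP genes share the DNA-contacting basic region of the protein, so the stretch of the reading frame that is most alike in Cebpa, Cebpb, Cebpe and Cebpg is shown for these 4, as 60 bases of the GENCODE vM21 transcript in the coding direction. Cebpd was left out, so the identities and shared runs given here do not cover it. Capitals mark the 35 bases that are identical in all 4.
Cebpa: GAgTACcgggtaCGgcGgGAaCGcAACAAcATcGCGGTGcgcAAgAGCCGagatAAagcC
Cebpb: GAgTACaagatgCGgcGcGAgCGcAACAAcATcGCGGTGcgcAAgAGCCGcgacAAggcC
Cebpe: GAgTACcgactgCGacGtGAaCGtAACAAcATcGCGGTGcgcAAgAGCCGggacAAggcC
Cebpg: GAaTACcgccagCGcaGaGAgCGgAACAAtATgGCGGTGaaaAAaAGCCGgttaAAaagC
Across this window Cebpa, Cebpb and Cebpe were identical at 85.0% of bases in each pair, and Cebpg, which lacks a strong activation domain, at 61.7% to 66.7% with each of them. The longest run of bases that 2 of these 4 coding sequences had in common was 29 bases, between Cebpa and Cebpb. Reads longer than such a run differ between the genes, but neither the read length nor the treatment of reads with several matches is given in the sources used here.

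The JMML libraries held 91976512 to 108395459 counts and the WT libraries 47096464 to 61656272 counts. In the sample titles an identifier ends in the letter F for JMML replicates 1 and 2 and in M for JMML replicate 3 and the 3 WT libraries. Xist, transcribed from the inactive X chromosome, had 54449 and 49961 counts in the JMML libraries with the letter F and at most 36 in the other 4 libraries, and 4 Y-linked genes together had 0 counts in those JMML libraries and at least 10884 in each other one. With the letter in the fit, the comparison of the groups rests on JMML replicate 3 against WT. Markers of several other blood cell types were also called lower in JMML: all 10 B cell markers, all 10 T cell markers, all 8 megakaryocyte markers and 7 of 10 erythroid markers, with summed B cell markers at 12.1 to 19.97 CPM (counts per library total of 1e6, after scaling) in JMML and 147.0 to 590.8 CPM in WT. Of 10 dendritic cell markers 5 were called higher and 2 lower (summed, 661.7 to 872.0 CPM in JMML and 220.7 to 249.9 CPM in WT), 0 of 7 NK cell markers and 0 of 6 eosinophil markers were called, 5 of 7 mast cell and basophil markers and 7 of 8 endothelial and stromal markers were called lower, and the hepatocyte markers Alb and Serpina1a were at 0 in every library. Summed endothelial and stromal markers overlapped between the groups, at 975.7 to 1461 CPM in JMML and 912.8 to 2848 CPM in WT. Summed mast cell and basophil markers were at 125.7 to 192.4 CPM in JMML and 233.5 to 308.5 CPM in WT. The megakaryocyte count was 8 in all 19 other settings. With the letter in the fit, 5 B cell, 2 T cell, 1 erythroid and 2 mast cell and basophil markers were lower, and in M libraries alone 4, 3, 8 and 2. Single libraries moved the counts too: omission of JMML replicate 1, 2 or 3 left 6, 6 and 10 T cell markers, 10, 8 and 2 erythroid markers, and 5, 4 and 3 mast cell and basophil markers. Omission of WT replicate 1, 2 or 3 left 6, 5 and 8 T cell, 1, 2 and 3 erythroid, and 1, 1 and 5 mast cell and basophil markers. Of the endothelial and stromal markers, 4 were lower on omission of JMML replicate 2 or WT replicate 2 or 3. The part of these shifts in the results below was not tested. In whole-sample RNA, fewer cells of a type and less RNA per cell cannot be told apart.

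Of the 10 factors, 5 were higher in JMML (Cebpa, Cebpb, Cebpd, Cebpe and Spi1), 1 was lower (Myb) and 4 were not called (Cebpg, Gfi1, Zeb2 and Nr4a1), by the edgeR quasi-likelihood test, with p adjusted by Benjamini-Hochberg over all tested genes and a threshold of 0.05. Over all tested genes, 12.4% were called higher and 13.8% lower. The median log2 fold change was 0.69 over the 10 factors and −0.02 over all tested genes. Every JMML library lay above every WT library for the 5 called higher, as for 22.9% of all tested genes. Every JMML library lay below every WT library for Zeb2 and Myb, as for 24.6% of all tested genes, and the groups overlapped for Cebpg, Gfi1 and Nr4a1.

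**Figure D1:**
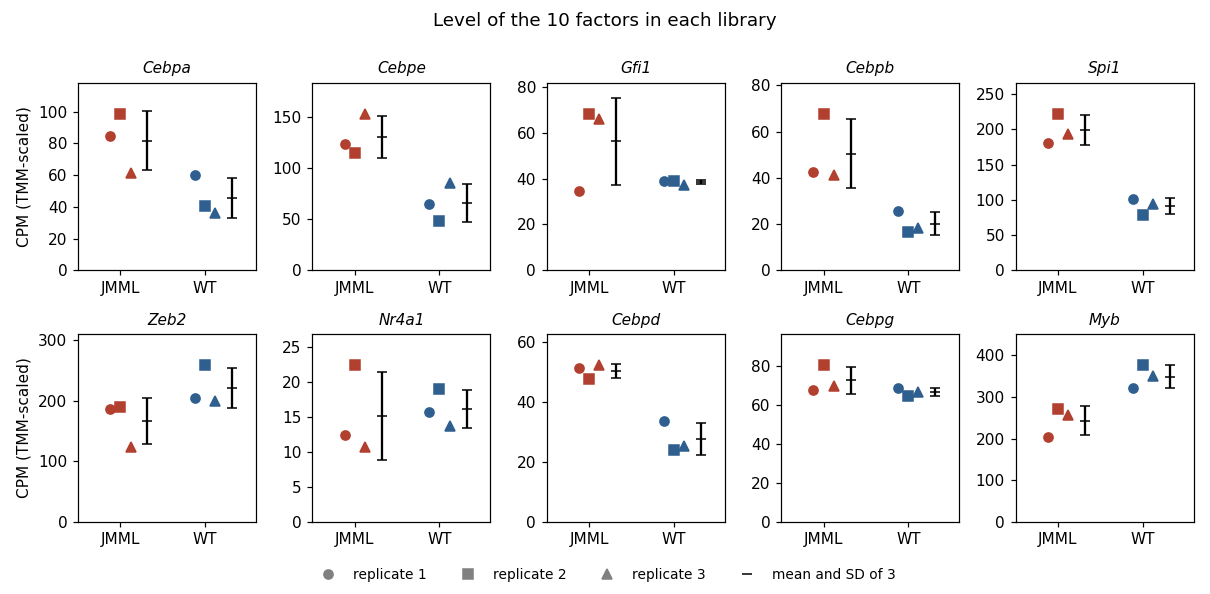
Normalised level of each of the 10 factors in every library, in CPM on a linear axis from 0, with JMML libraries left of WT libraries, a symbol for each replicate, and bars for the mean and SD of 3 libraries. Cebpa, Cebpb, Cebpd, Cebpe and Spi1 sit higher in every JMML library than in any WT library, Zeb2 and Myb lower, and Cebpg, Gfi1 and Nr4a1 overlap.

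Of the granulocyte factors, Cebpa and Cebpe were higher in JMML and Gfi1 was not called. Cebpa (chromosome 7, 35119293 to 35121928, plus strand, GRCm38, as all positions here) had 84.7, 98.6 and 61.7 CPM in the JMML libraries, in order of replicate number here and below, and 59.96, 40.8 and 36.3 CPM in the WT libraries. The lowest JMML library and the highest WT library were thus close. It was 1.79-fold higher in JMML (log2 fold change 0.84 ± 0.24 SE, adjusted p = 0.0381, edgeR, 3 libraries in each group). This call rested on single libraries: it ended when JMML replicate 1 (0.82) or 2 (0.70) or WT replicate 2 (0.76) or 3 (0.73) was left out, with the letter in the fit (0.43) and in M libraries alone (0.47).

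Cebpe (chromosome 14, 54710360 to 54712174, minus strand), which drives the secondary granule program, had 124.3, 114.7 and 153.5 CPM in JMML and 65.3, 48.3 and 85.6 CPM in WT. All JMML libraries were above all WT libraries, with a gap between 114.7 and 85.6 CPM. Its log2 fold change was 0.98 ± 0.22 (adjusted p = 0.0179, edgeR). It was larger in M libraries alone, at 1.25, and missed the threshold without WT replicate 1 (1.01) or WT replicate 2 (0.79).

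Gfi1 (chromosome 5, 107716657 to 107726036, minus strand) had 34.5, 68.2 and 65.9 CPM in JMML and 38.9, 39.1 and 37.3 CPM in WT. JMML replicate 1 lay below all 3 WT libraries, while JMML replicates 2 and 3 lay far above them. The WT libraries were close together, with an SD of 0.997 CPM, and the JMML libraries had an SD of 18.8 CPM (n = 3 each). The log2 fold change was 0.55 ± 0.25 (adjusted p = 0.137, edgeR). Without JMML replicate 1 it was 0.82 and called, and in M libraries alone it was 0.81 and called, so a single JMML library decides this call. A430072P03Rik, transcribed from the opposite strand over 3 pairs of overlapping exons, had means of 1.33 CPM in JMML and 0.792 CPM in WT.

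Of the monocyte factors, Spi1 and Cebpb were higher in JMML, and Zeb2 and Nr4a1 were not called. Spi1 (chromosome 2, 91082390 to 91115756, plus strand) had 180.6, 222.0 and 193.7 CPM in JMML and 100.9, 78.4 and 94.0 CPM in WT. Its lowest JMML library was well above its highest WT library. Its log2 fold change was 1.13 ± 0.14, or 2.18-fold (adjusted p = 0.00325, edgeR), and the call held in 18 of 19 other settings, the exception being the scaling to myeloid genes given further on.

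Cebpb (chromosome 2, 167688915 to 167690418, plus strand) had 42.4, 67.6 and 41.3 CPM in JMML and 25.7, 16.6 and 18.4 CPM in WT. JMML replicate 2 stood above the other JMML libraries, as it did for 8 of the 10 factors. At 2.497-fold, with a log2 fold change of 1.32 ± 0.25 (adjusted p = 0.0108, edgeR), Cebpb had the largest fold change of the 10 in this fit. With the letter in the fit it was 1.03 and in M libraries alone 1.07, the call ended in both, and Cebpe (1.21 and 1.25) and Spi1 (1.09 and 1.12) were then higher. On omission of JMML replicate 2 Cebpb was at 1.07 and Cebpe at 1.08. Tmem189, on the opposite strand, overlaps the gene in 1 pair of exons and had means of 39.7 CPM in JMML and 28.2 CPM in WT (log2 fold change 0.49, adjusted p = 0.114, edgeR). Whether counting used the strand is not given in the sources used here.

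Zeb2 (chromosome 2, 44983632 to 45117395, minus strand), a zinc finger repressor, had 186.4, 189.9 and 122.8 CPM in JMML and 204.8, 258.4 and 198.8 CPM in WT. The groups did not overlap, but JMML replicates 1 and 2 were close to the lowest WT library. The log2 fold change was −0.41 ± 0.19 (adjusted p = 0.159, edgeR). Zeb2 has the most exon bases of the 10, 19942, and after removal of the trend of fold change with exon length its value was −0.01. With the letter in the fit it was −0.85 and called lower. The antisense gene Zeb2os, which overlaps Zeb2 exons, had means of 5.74 CPM in JMML and 3.87 CPM in WT (log2 fold change 0.57, adjusted p = 0.0836, edgeR).

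Nr4a1 (chromosome 15, 101254269 to 101274795, plus strand), an orphan nuclear receptor that is also an immediate early gene, had 12.3, 22.3 and 10.7 CPM in JMML and 15.7, 19.0 and 13.7 CPM in WT. JMML replicate 2 was the highest of all 6 libraries and JMML replicates 1 and 3 the lowest. The log2 fold change was −0.09 ± 0.29 (adjusted p = 0.837, edgeR), and its sign changed with the library left out, being 0.05 without JMML replicate 1, 0.13 without JMML replicate 3 and −0.47 without JMML replicate 2. Its paralogs had log2 fold changes of −0.44 (Nr4a2) and −0.27 (Nr4a3), neither called, and were named after their values were seen.

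The remaining C/EBP genes parted. Cebpd (chromosome 16, 15887286 to 15891031, plus strand), induced in granulocyte maturation and in acute inflammation, had 51.3, 47.8 and 52.2 CPM in JMML and 33.6, 23.8 and 25.1 CPM in WT. The JMML libraries were close together, with an SD of 2.34 CPM, and all above WT. Its log2 fold change was 0.87 ± 0.16 (adjusted p = 0.00889, edgeR), and it was 0.96 but not called in M libraries alone. Spidr, which overlaps Cebpd on the opposite strand in 2 pairs of exons, had a log2 fold change of 0.09 (adjusted p = 0.541, edgeR). Cebpg (chromosome 7, 35046422 to 35056573, minus strand), a partner of other C/EBP and ATF factors, had 67.6, 80.2 and 69.7 CPM in JMML and 68.7, 64.3 and 66.5 CPM in WT. The groups overlapped, and the log2 fold change was 0.13 ± 0.11 (adjusted p = 0.408, edgeR). Of the 5 C/EBP genes, 4 were therefore called higher in JMML, and Cebpg had the smallest fold change among them. Annotated antisense genes at Cebpa (Gm45091) and Cebpg (Gm45095) were not analysed here.

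Myb (chromosome 10, 21124935 to 21160984, minus strand) had 203.6, 270.1 and 256.2 CPM in JMML and 320.5, 375.9 and 349.9 CPM in WT. All JMML libraries were below all WT libraries. Its log2 fold change was −0.52 ± 0.14, or 0.698-fold (adjusted p = 0.0343, edgeR). The call held in 8 of 19 other settings: it ended whichever library was left out (−0.59 to −0.39), with the letter in the fit (−0.45), in M libraries alone (−0.41) and after removal of the exon-length trend (−0.35). The lowest of these leave-out values was that without JMML replicate 2 and the highest that without JMML replicate 1. Omitting JMML replicate 3 gave −0.53, and omitting the WT libraries gave −0.53, −0.46 and −0.47 in order. The antisense gene Gm26577 had means of 0.709 CPM in JMML and 0.519 CPM in WT.

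**Figure D2:**
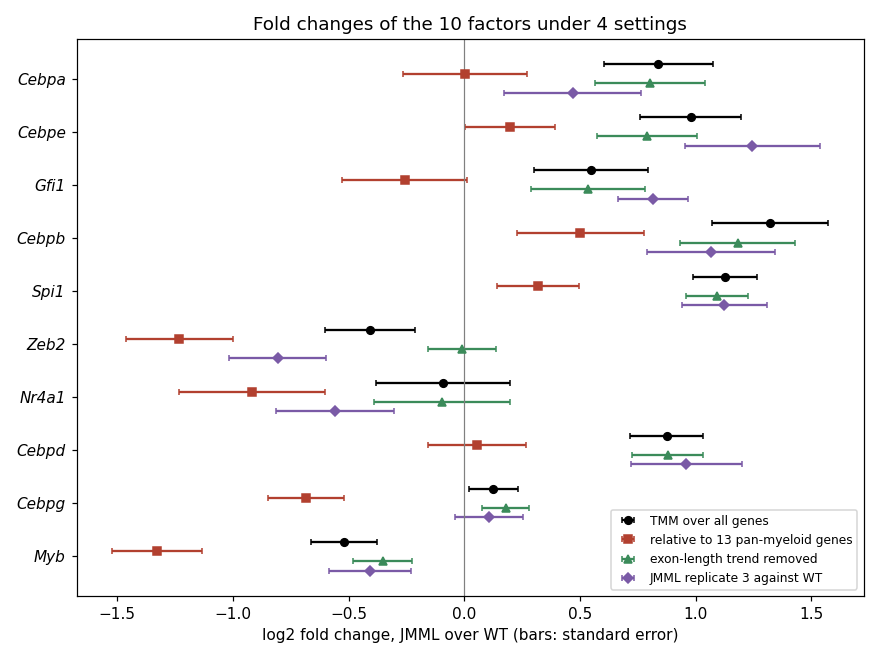
Log2 fold change of each factor, JMML over WT, with its standard error, under 4 settings: scaling over all genes, scaling to 13 pan-myeloid genes, removal of the exon-length trend, and JMML replicate 3 against WT (the M libraries). Scaled over all genes Cebpb stands highest at 1.32, and scaled to pan-myeloid genes all values shift down, Cebpb to 0.50 and Myb to −1.33.

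A chosen set of pan-myeloid genes made up a larger share of counts in every JMML library than in any WT library. The summed counts of 13 pan-myeloid genes, among them Csf2rb, Fes, Ncf4 and Fcer1g, made up 0.385%, 0.406% and 0.390% of counts in JMML and 0.236%, 0.248% and 0.287% in WT. The means were 0.394% ± 0.0113 in JMML and 0.257% ± 0.0268 in WT (SD, n = 3 each, exact permutation test, two-sided p = 0.1, the smallest that 3 against 3 can give). The 13 genes were chosen with earlier results of these data known, so this p-value cannot serve as support. Of the 13 genes 12 were called higher, and 7 with the letter in the fit. Each library was then scaled to the sum of these genes, which moved the median of all tested genes by −0.81 on the log2 scale and left 1.77% of all tested genes called higher and 61.0% called lower. Relative to that sum, 0 of the 10 factors were called higher. Cebpa was at 0.00, Cebpd at 0.06, Cebpe at 0.20, Spi1 at 0.32 and Cebpb at 0.50 (adjusted p = 0.133 to 0.990 over these 5, edgeR).

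On the same scale 4 of the factors were called lower in JMML: Cebpg at −0.69, Nr4a1 at −0.92, Zeb2 at −1.23 and Myb at −1.33. The median of all tested genes on this scale was −0.83. Gfi1 was at −0.26 and not called. This scaling moves all genes by a common amount towards a set of which most members were called higher, so lost calls and turned signs follow from that amount, and each factor keeps about the same distance from the median of all genes.

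Granulocyte factors were set against monocyte factors within each library as log2 ratios of normalised counts, which no scaling of libraries changes. Of the 12 pairs, 6 had a higher mean ratio in JMML and 6 a lower one, and the direction followed the monocyte factor in the pair. The pairs are not separate observations, since each difference nearly restates the log2 fold changes given above. Those of Cebpb (1.32) and Spi1 (1.13) were larger than that of any granulocyte factor, and those of Zeb2 (−0.41) and Nr4a1 (−0.09) were smaller. Against Zeb2 and Nr4a1 all 6 mean ratios were higher in JMML, also on omission of any 1 library. Against Cebpb and Spi1 all 6 were lower, but Cebpe to Cebpb turned to 0.02 without JMML replicate 2 and was −0.04 without WT replicate 3, and Cebpe to Spi1 turned to 0.05 without either of these. The groups overlapped in 7 pairs, and the share among ratios of other genes was not computed. For single genes, every JMML library lay above every WT library in 22.9% of all tested genes and below in 24.6%. The ratio of Cebpe to Zeb2 was −0.58, −0.73 and 0.32 in JMML and −1.65, −2.42 and −1.22 in WT, a difference of 1.43. That of Cebpa to Zeb2 was −1.14, −0.95 and −0.99 in JMML and −1.77, −2.66 and −2.45 in WT, a difference of 1.27. Both pairs had every JMML library above every WT library, as did Cebpa to Nr4a1 (1.002) and Gfi1 to Nr4a1 (0.64, and 0.28 without JMML replicate 3). After removal of the exon-length trend, an alternative chosen after the data were seen, the differences against Zeb2 were smaller, 0.80 for Cebpe, 0.81 for Cebpa and 0.54 for Gfi1, and all 12 kept their direction.

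The ratio of Gfi1 to Spi1 was the 1 pair with every JMML library below every WT library, at −2.39, −1.70 and −1.56 in JMML and −1.37, −1.004 and −1.33 in WT, a difference of −0.65. In that pair JMML replicate 1 lay farthest down, and without it the difference was −0.39. Gfi1 to Cebpb differed by −0.83, Cebpa to Cebpb by −0.46, Cebpe to Cebpb by −0.30, Cebpa to Spi1 by −0.28 and Cebpe to Spi1 by −0.12, with overlap in each. Cebpa to Spi1 was −0.11 on omission of JMML replicate 3, −0.15 on omission of WT replicate 1 and −0.46 on omission of WT replicate 3. Cebpe and Spi1 were the most abundant granulocyte and monocyte factors per exon length in JMML. Their ratio of counts, not divided by exon length, was −0.61 ± 0.31 in JMML and −0.49 ± 0.31 in WT (SD, n = 3 each). Per kilobase of exon the mean log2 ratio of these factors was 0.51 in JMML and 0.63 in WT. Irf8, which directs cells to the monocyte and dendritic lineages and away from granulocytes, was set beside them: the ratio of Gfi1 to Irf8 was −3.09, −2.75 and −2.65 in JMML and −2.30, −2.21 and −2.17 in WT, without overlap, while Cebpe to Irf8 differed by −0.08 with overlap and turned to 0.14 without JMML replicate 2 and 0.17 without WT replicate 3.

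**Figure D3:**
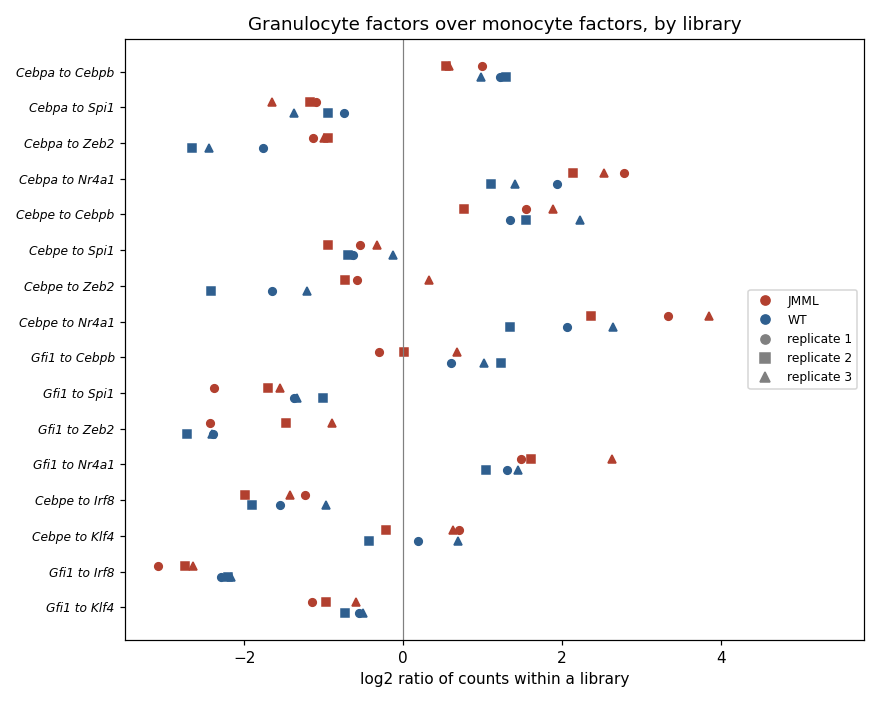
Log2 ratio of each granulocyte factor to each monocyte factor in every library, and of Cebpe and Gfi1 to Irf8 and Klf4, with JMML points above WT points in each row and a symbol for each replicate. Ratios to Zeb2 and Nr4a1 lie to the right in JMML and ratios to Cebpb and Spi1 to the left, with overlap in 7 of the 12 pairs of factors.

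Levels of different genes were compared as CPM per kilobase of exon. The length was that of all annotated exons of a gene joined, not of the transcript expressed, and the order depends on it. Zeb2, with 19942 such bases, had means of 166.4 CPM in JMML and 220.6 CPM in WT before division. In JMML the order was Cebpe (105.4 ± 16.3), Spi1 (73.8 ± 7.85), Cebpb (33.5 ± 9.90), Cebpa (31.0 ± 7.09), Myb (27.2 ± 3.93), Gfi1 (17.6 ± 5.91), Cebpd (13.5 ± 0.625), Cebpg (12.9 ± 1.2), Zeb2 (8.34 ± 1.89) and Nr4a1 (4.31 ± 1.80; SD, n = 3 each). The ranges of Cebpb and Cebpa overlapped, as did those of Cebpa and Myb, Gfi1 and Cebpd, Cebpd and Cebpg, and Zeb2 and Nr4a1. In WT the order was Cebpe (53.5 ± 15.1), Myb (39.0 ± 3.10), Spi1 (33.8 ± 4.28), Cebpa (17.3 ± 4.77), Cebpb (13.4 ± 3.22), Gfi1 (12.1 ± 0.313), Cebpg (11.8 ± 0.387), Zeb2 (11.1 ± 1.65), Cebpd (7.34 ± 1.42) and Nr4a1 (4.59 ± 0.766). Neighbours whose WT ranges did not overlap were Spi1 and Cebpa, Zeb2 and Cebpd, and Cebpd and Nr4a1. Cebpe was first and Nr4a1 last in both groups, and Myb stood at place 5 in JMML and at place 2 in WT.

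Genes with textbook links to the factors were counted from lists. Beside these counts, 12.4% of all tested genes were called higher and 13.8% lower, and relative to the pan-myeloid genes 1.77% and 61.0%. Fewer of all tested genes were also called with the letter in the fit, in M libraries alone and on omission of any 1 library. A lower count of a list in those settings is therefore not by itself particular to the list. Of 25 neutrophil granule and receptor genes, which C/EBP factors and Gfi1 regulate, 13 were called higher and 0 lower, with a median log2 fold change of 0.88. The 4 with the smallest p were Ms4a3, a marker of granulocyte and monocyte precursors (1.26 ± 0.11), Hp, haptoglobin (1.64 ± 0.17), Clec5a, a myeloid lectin receptor (1.47 ± 0.18), and Gstm1 (1.33 ± 0.19). Csf3r, the receptor of granulocyte colony-stimulating factor and a Cebpa target, named after its value was seen, had 99.4, 83.9 and 98.6 CPM in JMML and 90.0, 92.3 and 92.3 CPM in WT, and was not called. Of granule genes in the list, the secondary granule genes Ltf (0.24), Camp (0.57), Ngp (0.60) and Lcn2 (0.93), the neutrophil surface gene Cd177 (0.39) and the primary granule gene Mpo (0.31) were not called, with overlap between the groups, whereas Elane (0.63), also of primary granules, and Mmp8 (2.62), a collagenase of neutrophil granules, were called higher. All of these but Lcn2 were likewise chosen after their values were seen, and Elane lost its call in 10 of 19 other settings. Ctsg (1.001) and Prtn3 (0.88), also of primary granules and named after their values were seen, were called higher too. They lost their calls in 1 and 2 of 19 other settings. The count of the list was 18 without WT replicate 3, 10 with the letter in the fit, 8 without WT replicate 2 and 6 relative to the pan-myeloid genes. Its median was 1.05 with the letter in the fit and 1.08 in M libraries alone.

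Of 20 monocyte and macrophage genes, 16 were called higher and 0 lower, with a median of 1.07. Those with the smallest p were Ly6c2, which marks classical monocytes (1.48 ± 0.14), Mpeg1, a pore-forming protein of macrophages (1.37 ± 0.13), Csf2ra (0.95 ± 0.11) and Cd68 (0.92 ± 0.12). Ly6c2 had 526.3, 695.1 and 640.1 CPM in JMML and 222.7, 230.6 and 214.8 CPM in WT, with no overlap. Csf1r, the receptor of macrophage colony-stimulating factor and a PU.1 target, named after its value was seen, had 295.5, 304.7 and 193.2 CPM in JMML and 201.4, 196.7 and 197.5 CPM in WT, overlapping, and was not called. The count was 8 with the letter in the fit and 7 relative to the pan-myeloid genes. The median was 0.70 with the letter in the fit and 0.74 in M libraries alone, below that of the neutrophil list in both settings. Both settings rest on JMML replicate 3 alone for JMML. Without JMML replicate 3 the order was the other way, with medians of 1.32 for the monocyte list and 0.82 for the neutrophil list. The monocyte median was also the higher on omission of any other library.

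Of 10 genes tied to Nr4a1-dependent Ly6C-low monocytes, 3 were called higher, 1 lower and 6 not, with a median of 0.03. The 4 called were Apoc2 (2.26), the Fc receptor gene Fcgr4 (1.34), the integrin gene Itgal (0.38) and, lower, Pou2f2 (−0.74). Itgal and Pou2f2 lost their calls in 11 and 10 of 19 other settings. In M libraries alone 0 were higher and 1 was lower, and on omission of WT replicate 2 there were 1 and 0. Of 14 Myb targets and progenitor genes, 9 were called lower and 1 higher, with a median of −0.81. Adgrg1 (−1.66 ± 0.17), Meis1 (−1.48 ± 0.19), Sox4 (−1.75 ± 0.25) and Myc (−1.02 ± 0.17) had the smallest p, and the first 3 were called in all 19 other settings. Adgrg1, a receptor of stem and progenitor cells, had 38.0, 59.6 and 50.1 CPM in JMML and 153.1, 144.6 and 169.7 CPM in WT. The count of lower genes was 3 with the letter in the fit and 4 in M libraries alone.

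Of 11 genes that Gfi1 represses, 3 were called higher (Id2, Cdkn1a and Irf8) and 3 lower (Meis1, Csf1 and Gfi1b), with a median of 0.35. These counts were 5 and 2 on omission of JMML replicate 3, and 3 and 1 with the letter in the fit. Of 11 tested inflammatory targets of Cebpb, 3 were called higher and 0 lower, with a median of 0.57: Tnf (1.17), the scavenger receptor gene Msr1 (1.35) and Saa3 (3.38), whose level was at most 0.903 CPM in any library. Lcn2, the next by p, had a log2 fold change of 0.93 and was not called, and Csf3 was at 0 in every library. Omission of JMML replicate 2 or of WT replicate 1 or 2 left 1 called gene in this list, as did the letter in the fit and M libraries alone, and Msr1 lost its call in 11 of 19 other settings. In the Cebpg and Atf4 group the smallest p were those of Batf3 (2.35), Ddit4 (3.43), Batf (1.003) and Atf4 (0.47). Of its 13 genes, 5 were called higher and 0 lower, with a median of 0.47. That count was 2 in M libraries alone and 3 with the letter in the fit or on omission of JMML replicate 1 or 3 or WT replicate 2 or 3, and Atf4 lost its call in 11 of 19 other settings. Among 13 immediate early genes, the class that Nr4a1 shares, the smallest p were those of Ier2 (1.24), Atf3 (1.44), Junb (1.38) and Jun (1.55). Fos (2.35) and Dusp1 (2.15), also called and named after their values were seen, had larger fold changes. Dusp1 lost its call in 10 of 19 other settings. Of the 13 genes, 6 were called higher and 0 lower, with a median of 1.25. The count was 2 in M libraries alone, where the median was 0.39.

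**Figure D4:**
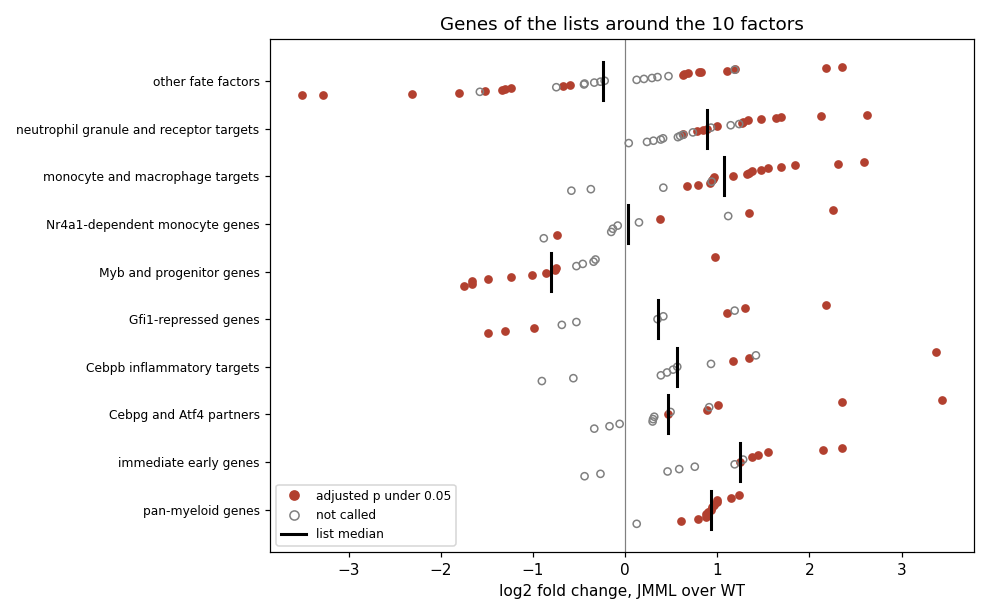
Log2 fold change, JMML over WT, of every tested gene in each list linked to the factors, with 1 row of points per list, called genes filled, and the list median as a bar. Values are from the fit without the letter. The medians are highest for immediate early genes (1.25) and monocyte genes (1.07) and lowest for Myb targets and progenitor genes (−0.81).

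Of 32 other fate factors, 9 were called higher, 10 lower and 13 not, with a median of −0.25. Higher were Id2 (2.18) and Batf3 (2.35), factors of dendritic and innate lymphoid cells, Irf8 (1.11), Nfil3 (1.19), Klf4 (0.82), a monocyte factor, Id1 (0.81), Stat3 (0.68), Fli1 (0.64) and Cbfb (0.63). Irf8 had 293.2, 457.9 and 412.0 CPM in JMML and 191.8, 180.2 and 168.0 CPM in WT, without overlap. Among those lower were Irf4 (−3.51) and Spib (−3.28), both used by B cells and plasmacytoid dendritic cells, Trib2 (−2.31), the macrophage factor Spic (−1.80), Tcf4 (−1.34), the erythroid and megakaryocyte factors Gfi1b (−1.30) and Gata2 (−1.24), Runx1 (−0.68) and Zeb1 (−0.59). Gfi1b is the paralog of Gfi1 and had 42.1, 11.8 and 25.7 CPM in JMML and 70.0, 58.9 and 67.3 CPM in WT. Zeb1, the paralog of Zeb2, lost its call in 10 of 19 other settings, Fli1 in 8, Spib in 7 and Klf4 in 6. Without WT replicate 2 the list had 5 higher and 3 lower. Omitting JMML replicate 3 gave 9 and 5, omitting WT replicate 1 gave 7 and 5, and omitting WT replicate 3 gave 9 and 6. It had, with the letter in the fit, 5 and 6, and, relative to the pan-myeloid genes, 2 and 17.

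Promoter windows of 250 bases before a transcript start, from RefSeq's GRCm38.p6, were given for 7 of the 10 factors in 11 windows. They were searched on both strands for GAGGAA, bound by PU.1, for TTGCNNAA, bound by C/EBP factors, and for TGACG, the core bound by CREB and ATF factors that switch on immediate early genes. Among 32851 windows of that length in the table, 23.3% held GAGGAA, 9.56% held TTGCNNAA and 17.8% held TGACG. Cebpb and Nr4a1, both inducible genes of which Cebpb was called higher and Nr4a1 was not, held 3 and 4 matches of TGACG and none of the other motifs. Their windows are shown 5′ to 3′ on the gene's strand for that reason, with matches in capitals (CGTCA is TGACG read on the other strand).
Cebpb, chr2:167688665-167688914, plus strand: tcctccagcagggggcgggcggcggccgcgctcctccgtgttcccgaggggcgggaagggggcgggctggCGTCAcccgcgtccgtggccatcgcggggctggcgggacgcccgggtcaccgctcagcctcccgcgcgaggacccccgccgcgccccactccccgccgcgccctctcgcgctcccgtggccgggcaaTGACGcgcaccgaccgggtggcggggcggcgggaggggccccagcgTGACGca
Nr4a1, chr15:101266596-101266845, plus strand: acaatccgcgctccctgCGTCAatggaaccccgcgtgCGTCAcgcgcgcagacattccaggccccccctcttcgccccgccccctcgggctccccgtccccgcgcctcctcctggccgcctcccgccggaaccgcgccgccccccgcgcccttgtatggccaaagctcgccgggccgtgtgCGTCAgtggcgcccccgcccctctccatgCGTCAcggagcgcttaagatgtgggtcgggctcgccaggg
Each of the 4 windows of Zeb2 held GAGGAA, and the outermost, which lies before the most distal start, also held TTGCNNAA, so it is shown as the 1 window with both.
Zeb2, chr2:45117443-45117692, minus strand: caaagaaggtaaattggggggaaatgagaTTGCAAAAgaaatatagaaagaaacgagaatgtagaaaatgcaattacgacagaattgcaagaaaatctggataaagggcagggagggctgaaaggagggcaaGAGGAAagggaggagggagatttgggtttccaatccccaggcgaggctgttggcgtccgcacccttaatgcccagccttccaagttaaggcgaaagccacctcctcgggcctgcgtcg
The 2 inner Zeb2 windows that overlap each other held TGACG, and the outer of 2 Gfi1 windows held TTGCNNAA. The windows of Cebpa, Cebpg and Myb held none of the 3, and the promoters of Cebpd, Cebpe and Spi1 were not analysed here. A match describes the letters in a window and shows no binding.

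The genes whose normalised log2 levels over the 6 libraries were most like each factor were named by Pearson's r among 11116 genes, as a description, since libraries of 1 group share their condition and depth. They were Acot1 for Cebpa (0.989), Mrpl45 for Cebpb (0.994), Selenoh for Cebpd (0.997), Cwc25 for Cebpe (0.997), Prex1 for Cebpg (0.993), Rtca for Spi1 (0.998), Sil1 for Gfi1 (0.992), Glb1l for Zeb2 (0.991), Cbl for Nr4a1 (0.977) and AW554918 for Myb (0.997). Next came Mblac1, Nuak2, Trpv2, Asf1b, Dus3l, Rrp7a, Mcur1, Adam22, Cep131 and Zmym3, in the same order of factors.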

How the data were processed

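The files hold raw counts per Ensembl gene, whole numbers that the authors deposited unnormalized. The build was GRCm38, per the submitters' processing notes, which name STAR 2.5.3a, StringTie 1.3.3b, Picard 2.0.1, bcl2fastq 2.18.0.12, DESeq2 1.22.2 and R 3.5.0; their roles are not listed. Per the labels' protocols a stranded total RNA kit was used. Neither the counting tool nor the annotation nor the strand setting is given in the sources used here. In each library 51.6% to 58.8% of counts of 1 to 20 were even, so both mates of a pair may have been counted, and counts then overstate fragments. Of 46078 identifiers, 45229 (98.2%) matched GENCODE vM21. No library was a copy of another (chi-square per degree of freedom between pairs at least 115.1).

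The quasi-likelihood F test of edgeR 4.0.16 (R 4.3.3) was run on the counts with filterByExpr by group, TMM scaling (factors 0.892 to 1.11) and Benjamini-Hochberg adjustment over 18097 genes at 0.05. A standard error is the size of the log2 fold change over the root of F. CPM are on TMM-scaled totals, where 1 unscaled count is 0.00923 to 0.0212 CPM, and the common biological coefficient of variation was 29.4%, which limits the precision of 3 against 3. Alternatives were DESeq2 1.42.0 and its size factors, limma-voom 3.58.1, library totals, scaling to pan-myeloid genes, other count filters, thinning to the smallest total, an exon-length offset (loess span 0.5), the replicate number, the identifier letter, M libraries only and each library left out. Scripts used Python 3.11.15, pandas 2.3.3, scipy 1.17.1 and matplotlib 3.10.9.

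The factors and lists were chosen with earlier results of these data known. Named genes were the 10 factors, the 4 tested genes of smallest p in each list, every called gene of the other fate factors and the 2 genes most like each factor. Others are marked as named after their values were seen. Some results that these rules cover are not reported here.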

Additional observations from a re-analysis of the deposited data

How the results depend on the processing

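The main counts were 2245 genes higher and 2492 lower and 5 factors higher and 1 lower. In each setting named next at least 1 of these counts moved by over 1.5 times, though not every count printed did. Library totals gave 1280 higher. Scaling to pan-myeloid genes gave 320 higher and 11044 lower, with 0 factors higher and 4 lower, which follows from its common shift of −0.81 of all genes. The letter in the fit gave 969 and 1250 with 3 factors higher, and its 1 lower factor was Zeb2. M libraries only gave 1012 and 1298, with 3 factors higher and 0 lower. The replicate block gave 1358 and 1451, and with the exon-length offset 1338 and 1227 and 0 factors lower. The exon-length offset alone and the absence of a low-count filter each gave 0 factors lower. Leaving out each library in turn gave 1050 to 1955 higher, 1153 to 2048 lower, 3 to 5 factors higher and 0 lower. Among these, the genes higher and the factors higher moved by over 1.5 times only without WT replicate 2 (1050 and 3). The genes lower did so in every omission but that of JMML replicate 1 (2048). Deviations from the group means correlated at −0.199, 0.045 and −0.143 between same-numbered libraries and at −0.096 to 0.229 between differently numbered ones. Deviations within a group of 3 are tied to each other, so these values cannot decide whether the replicate numbers pair libraries. In the replicate block no factor changed its call, and with the offset Cebpb (1.16) and Myb (−0.36) lost theirs. The sign turned for Cebpg with library totals (−0.056) and pan-myeloid scaling (−0.69), for Gfi1 with pan-myeloid scaling (−0.26) and for Nr4a1 without JMML replicate 1 (0.05), JMML replicate 3 (0.13) or WT replicate 2 (0.04), its leave-out values running between −0.47 and 0.13. Over 19 settings and 10 factors, 150 values kept sign and side of the threshold, 29 lost a call, 5 gained one and 6 turned, those under pan-myeloid scaling through its common shift. Library totals ended the call of Cebpa (0.65) and the absence of a filter that of Myb (−0.43). The causes were not tested. Thinning of all libraries to 47096464 counts changed no call among the factors.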
